A study of Rattus norvegicus with 4 samples.

Results

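Star and Dhrs3, a gene of steroid synthesis and a gene of retinoid metabolism, were followed in cultured rat heart cells given either of the long-chain fatty acids of fish oil. They were found by their gene symbols in the annotation of the array, where each has 1 probe, and so make up 2 of the 9653 named genes measured. Both were chosen by their log ratios of fatty acid over control on these same arrays, so their ratios are given as a description and with no test.

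Star, the steroidogenic acute regulatory protein, moves cholesterol from the outer to the inner mitochondrial membrane, where the side-chain cleavage enzyme Cyp11a1 turns it into pregnenolone. That transfer limits the rate of steroid synthesis in adrenal gland and gonad, and Star is transcribed there after cyclic AMP signalling. Dhrs3, a short-chain dehydrogenase/reductase, reduces retinal to retinol and so draws retinal away from oxidation to retinoic acid, the ligand of the retinoic acid receptors. Its transcript is induced by retinoic acid in other cell systems, as are those of the retinoic acid hydroxylases of the Cyp26 family, and retinoic acid is known for its part in heart development.

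The cells came from ventricles of newborn Wistar rats and were kept as primary cultures, which can hold fibroblasts and other heart cells beside cardiomyocytes. Control cells grew in HAM F10 medium with fetal calf serum and horse serum, each at 10%, and the EPA and DHA groups grew in this medium with 60 µM eicosapentaenoic acid or 60 µM docosahexaenoic acid. The prefix of that unit is missing in the labels and is read as micro. Medium was replaced at 48 h intervals in all 3 groups until confluence. On each of 4 arrays with 2 colours, RNA of supplemented cells was set directly against RNA of control cells. The supplemented RNA carried Cy5 on array 1 and Cy3 on array 2 of either fatty acid. The labels do not say how many animals were pooled or if a swap was made from separate extracts, and each fatty acid is therefore counted as 1 RNA sample.

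All values are log2 ratios after the median of each array was set to 0, read as fatty acid over control. This reading is likely and not stated. It rests on the sample titles, which name the supplemented cells whichever dye they carried, and the ratios do not settle it. Under this reading 3 genes passed 1.5-fold in the same direction on both EPA arrays and 27 in opposite directions, against 8 and 5 genes with DHA. At 1.3-fold 25 genes had the same and 72 opposite directions with EPA, and 37 and 69 with DHA. If the table instead held Cy5 over Cy3, the mean of Dhrs3 would be 0.02 with EPA and 0.01 with DHA, that of Star -0.20 and 0.14, and by the mean of the 4 arrays Star would rank 5262 and Dhrs3 3775 from the top of 9653 genes. Base 2 is an assumption as well. With base 10 the folds below would all grow. The error beside a mean is the half-difference, the distance of either array of a fatty acid from the mean of both. Its median over all genes was 0.09 with EPA and 0.09 with DHA. No intensities were used here, so the level of a transcript, and whether a marker is absent, cannot be read from these data. In a bulk culture a change in the number of cells of a type and a change in RNA per cell cannot be told apart.

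Arrays 2 of EPA and DHA correlated with each other across 20500 probes (Pearson's r = 0.65), more than arrays 1 did (r = 0.06), whereas the arrays of the EPA swap gave r = -0.11 and those of the DHA swap r = -0.03. DHA array 1 stood apart by a tail of low ratios. It had 1090 probes under -1, of which 1082 lay in the first 66 inferred columns of the spot grid, against 1 to 8 probes under -1 on the other arrays. The spots of Star, in column 169, and of Dhrs3, in column 130, lie outside that area. Genes named below that have a probe inside it are marked with the words low-ratio area.

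The promoter windows of 3 genes are printed, all from RefSeq on GRCr8 and covering the 250 bases before the annotated start. RefSeq gave such a window for 1 of the 2 members, Dhrs3. Hilpda is shown because its ratios were among the 5 nearest to both members, and Ucp3 because it was among the 5 nearest to Star and holds the core of nuclear receptor sites. Each line runs 5′ to 3′ on the strand of the gene, and capitals mark the matches to 11 motifs searched on both strands. The windows lie on the plus strand at chr5:162031603-162031852 (Dhrs3), chr4:58836213-58836462 (Hilpda) and chr1:164227660-164227909 (Ucp3).
Dhrs3: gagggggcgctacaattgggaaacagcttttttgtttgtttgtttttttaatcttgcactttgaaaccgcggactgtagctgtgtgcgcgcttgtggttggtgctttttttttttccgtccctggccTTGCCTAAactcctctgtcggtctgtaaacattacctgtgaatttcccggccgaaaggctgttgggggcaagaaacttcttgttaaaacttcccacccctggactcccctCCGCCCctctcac
Hilpda: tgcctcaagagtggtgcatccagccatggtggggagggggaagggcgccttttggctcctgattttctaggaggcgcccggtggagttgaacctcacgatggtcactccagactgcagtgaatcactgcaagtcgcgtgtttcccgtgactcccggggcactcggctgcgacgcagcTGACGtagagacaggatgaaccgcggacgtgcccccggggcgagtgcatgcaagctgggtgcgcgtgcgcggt
Ucp3: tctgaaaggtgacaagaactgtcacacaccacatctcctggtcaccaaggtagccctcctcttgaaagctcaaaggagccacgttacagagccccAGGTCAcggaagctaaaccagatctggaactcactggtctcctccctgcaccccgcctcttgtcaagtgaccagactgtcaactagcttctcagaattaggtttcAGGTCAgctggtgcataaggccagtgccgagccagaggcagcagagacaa

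The window of Dhrs3 matched 2 of the motifs. TTGCNNAA, the core bound by C/EBP factors, lies at -123 to -116 from the start, and GGGCGG, the GC box of the Sp1 family, lies on the opposite strand at -13 to -8. The first occurs in 8.01% and the second in 54.8% of the windows of 8374 array genes. AGGTCA, the core half-site of nuclear receptors, is absent from the Dhrs3 window, and so are AGTTCA, a half-site common in elements of the retinoic acid receptors, and direct repeats of AGGTCA with spacers of 1, 2 or 5 bases. CAAGGTCA, the site of Nr5a1, of which AGGTCA forms a part, AGATAA of GATA factors, TGACG of cyclic AMP response factors and TATAAA, the TATA box, are absent too. AGGTCA occurs in 11.6% of the windows. Ucp3 holds it at -155 to -150 and at -50 to -45, and Hilpda holds TGACG, found in 25.7% of the windows. These matches describe letters in short windows, and binding was not measured.

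The first comparison asked how the RNA of EPA-supplemented cells differed from that of control cells. Dhrs3 was at 0.73 on EPA array 1 and at 0.69 on EPA array 2, a mean of 0.71 ± 0.02 or 1.64-fold. Both arrays lay above 1.5-fold (0.58), and 88.4% of all genes had a larger half-difference. Star was at 0.16 on EPA array 1 and at 0.56 on EPA array 2, a mean of 0.36 ± 0.20 or 1.28-fold. Star thus lay above 0 on both arrays and reached 1.5-fold on neither, and 17.4% of genes had a larger half-difference.

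With EPA, 3 genes passed 1.5-fold upward on both arrays (0.0311% of 9653). Dhrs3 was 1 of them and ranked 12 from the top by EPA mean. Star ranked 143. Read as Cy5 over Cy3, Dhrs3 would rank 4151 and Star 8744. No gene was 1.5-fold lower on both arrays (0%). At 1.3-fold, 0.176% of genes were higher and 0.0829% lower. Because these ratios were used to pick both genes, nothing is read from the counts about them.

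In the comparison of DHA with control, Star was at 0.98 on DHA array 1 and at 0.70 on DHA array 2, a mean of 0.84 ± 0.14 or 1.79-fold, and passed 1.5-fold on both arrays. Dhrs3 was at 0.48 and 0.46, a mean of 0.47 ± 0.01 or 1.38-fold, so it passed 1.3-fold on both arrays and 1.5-fold on neither. By DHA mean Star ranked 4 and Dhrs3 42 from the top, or 902 and 3866 read as Cy5 over Cy3. With DHA 0.0414% of genes were 1.5-fold higher and 0.0414% lower on both arrays, and 0.145% and 0.238% at 1.3-fold. Star's call depends on its surroundings on the array. The median of the spots around it was 0.18 on DHA array 2 and 0.01 on DHA array 1, and with local medians removed the DHA mean of Star was 0.74 ± 0.22, with array 2 at 0.52 and so under 1.5-fold. The same step left Dhrs3 at 0.73 ± 0.04 with EPA, past 1.5-fold on both arrays.

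**Figure D1:**
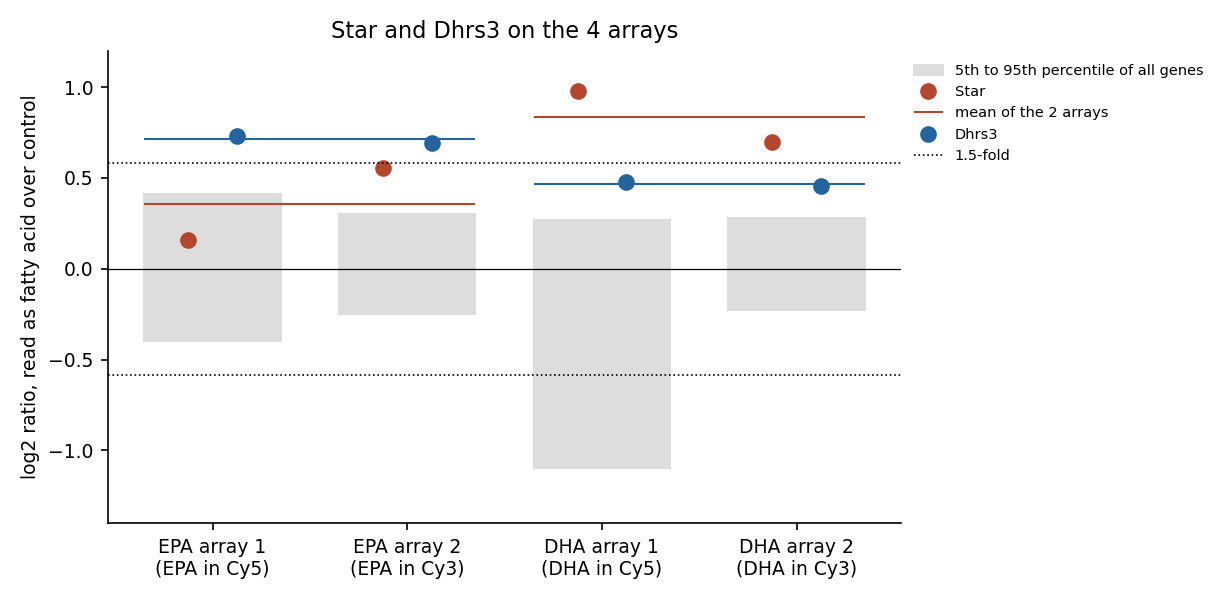
Log2 ratios, read as fatty acid over control, of Star (red) and Dhrs3 (blue) on each of the 4 arrays, with the mean of the 2 arrays of a fatty acid as a line, the 5th to 95th percentile of all 9653 genes in grey and 1.5-fold dotted. Dhrs3 lies above 1.5-fold on both EPA arrays (0.73 and 0.69) and Star on both DHA arrays (0.98 and 0.70), while Star falls inside the grey range on EPA array 1 (0.16).

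The third comparison set EPA against DHA, both at 60 µM, within a dye orientation. These fatty acids differ in chain length and in their number of double bonds. The EPA ratio of Dhrs3 exceeded its DHA ratio by 0.25 on arrays 1 and by 0.24 on arrays 2, a mean of 0.24 ± 0.0075 or 1.18-fold. Both EPA values of Dhrs3 lay above both DHA values, as they did for 15.1% of all genes, and 1984 of 9653 genes had a larger difference in either direction. For Star the difference was -0.82 on arrays 1 and -0.14 on arrays 2, a mean of -0.48 ± 0.34, so its direction was shared by both orientations and its size rested on arrays 1. Both EPA values of Star lay below both DHA values, as for 13.6% of all genes. Both genes lay above 0 on all 4 arrays, whereas 8.49% of all genes had their EPA arrays on one side of 0 and their DHA arrays on the other. Of all genes 0.0414% were 1.5-fold higher and 0.0207% lower with EPA than with DHA on both orientations, and neither Star nor Dhrs3 was among them, nor at 1.3-fold (0.269% and 0.135%). Both EPA values of Dhrs3 exceeded those of Star, and both DHA values of Star exceeded those of Dhrs3. With 1 RNA sample for each fatty acid no interval of these differences can be given, and whether the 2 comparisons share a control RNA is not stated.

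Over the 4 arrays together, Star averaged 0.60 and Dhrs3 0.59, ranks 9 and 12 from the top under the reading as fatty acid over control. They reached these means in different ways. The lowest array of Dhrs3, DHA array 2 at 0.46, ranked 4 among the lowest arrays of all genes, and that of Star, EPA array 1 at 0.16, ranked 40. In descending order Star ran from DHA array 1 to DHA array 2, EPA array 2 and EPA array 1, and Dhrs3 from EPA array 1 to EPA array 2, DHA array 1 and DHA array 2.

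The genes around both pathways were then read from 9 lists holding 193 genes besides Star and Dhrs3, of which 135 were measured. None of the 135 was 1.5-fold higher or lower on both arrays of EPA, of DHA or of their difference. At 1.3-fold 1 of the 135 was higher and 1 lower with EPA (0.741% each, against 0.176% higher and 0.0829% lower of all genes). With DHA 0 were higher, against 0.145% of all genes, and 3 were lower (2.22%, against 0.238%). Those 3 were Cyp7b1 and Nr4a3, both in the low-ratio area of DHA array 1, and Rarres2, outside it. Of the 135 genes, 44 have a probe in that area. The median ratio over the 135 genes was -0.0032 with EPA and 0.01 with DHA, against -0.0012 and 0.00021 over all genes. Above 0 on all 4 arrays were 17 of them (12.6%), against 7% of all genes, and below 0 on all 4 were 8 (5.93%), against 7.59%. In limma on the 2 swap means across 20500 probes (Benjamini-Hochberg adjustment), 0 of the 171 probes of these genes passed an adjusted p of 0.05, like 0% of all probes. The smallest adjusted p was 0.891. This fit takes EPA and DHA as repeats of fatty acid against control and may leave out the spread of the control. Its p-values do not measure the spread among animals, and the empty result does not show that these genes were unchanged. Unadjusted p lay under 0.05 for 5 of these probes above control and 8 below, against 2.4% and 2.03% of all probes. The count over all probes rests on the arrays used: limma called 1680 of 20500 on arrays 2 alone, which correlated with each other, and 0 on arrays 1 alone (869 at an unadjusted p under 0.05).

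None of the 9 measured genes of cholesterol delivery passed 1.3-fold on both arrays of either fatty acid. Dbi, an acyl-CoA binding protein that also binds the mitochondrial translocator protein, lay above 0 on all 4 arrays, at 0.26 ± 0.09 with EPA and 0.19 ± 0.16 with DHA. Tspo, that translocator protein, was at -0.12 ± 0.14 and 0.01 ± 0.16, and Stard4, a soluble sterol carrier with 1 of 3 probes in the low-ratio area, at 0.01 ± 0.11 and -0.11 ± 0.0038. The median of the 9 measured genes of cholesterol delivery was 0.0076 with EPA and -0.11 with DHA, where 5 of them have a probe in the low-ratio area. In the same samples Star stood at 0.36 and 0.84.

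Of the enzymes downstream, Cyp11a1 was at -0.02 ± 0.08 with EPA and 0.02 ± 0.06 with DHA, neither value being past 1.3-fold, while Star passed 1.5-fold with DHA. Fdx1, the ferredoxin that passes electrons to Cyp11a1, was at -0.11 ± 0.01 and -0.93 ± 0.83, the latter from -1.76 on DHA array 1, in the low-ratio area, and -0.10 on DHA array 2. Hsd11b1, which regenerates active glucocorticoid, was the list gene lower with EPA at 1.3-fold, at -0.47 and -0.44, a mean of -0.45 ± 0.02. With DHA it was at 0.03 and -0.37. Cyp7b1, a steroid and oxysterol hydroxylase in the low-ratio area, was at -0.17 ± 0.16 and -0.86 ± 0.47, and Cyp27a1, the sterol hydroxylase of mitochondria, at 0.07 ± 0.23 and 0.05 ± 0.07. Over the 26 measured synthesis genes the median was -0.02 for EPA and -0.02 for DHA.

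Among transcription factors and receptors linked to Star, Gata4, a cardiac factor that also acts on the Star promoter, was at 0.15 ± 0.06 with EPA and 0.07 ± 0.03 with DHA. The nuclear receptors Nr4a1 and Nr4a3, which are induced rapidly by cyclic AMP and have their probes in the low-ratio area, were at -0.43 ± 0.49 and -0.11 ± 0.66 with EPA and at -0.57 ± 0.36 and -0.67 ± 0.16 with DHA. Nr4a3 passed 1.3-fold on both DHA arrays, at -0.83 and -0.51, while its EPA arrays opposed each other at 0.56 and -0.77. Nr1h3, the sterol-sensing liver X receptor alpha, was at 0.03 ± 0.09 and -0.15 ± 0.14. Agtr1a, the angiotensin II receptor that raises Star in the adrenal gland, was lower with EPA than with DHA at 1.3-fold on both orientations, by a mean of -0.47 ± 0.07. Over the 22 measured regulators the median was 0.06 for EPA and -0.05 for DHA.

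None of the measured carriers of cellular cholesterol passed 1.3-fold on both arrays. The cholesterol exporter Abca1 was at -0.07 ± 0.01 with EPA and -0.01 ± 0.12 with DHA, the lipoprotein receptor Scarb1, in the low-ratio area, at 0.06 ± 0.01 and 0.05 ± 0.04, and the lysosomal transporter Npc1 at -0.10 ± 0.05 and 0.04 ± 0.0071. The lipase Lipe, which frees cholesterol from esters, was at 0.13 ± 0.16 and 0.06 ± 0.02, and the esterifying enzyme Soat1 at -0.20 ± 0.04 and -0.02 ± 0.06. The 12 measured genes had medians of 0.0023 and 0.0081. Of the steroid receptors, with medians of -0.0087 and 0.04 over 8 genes, the glucocorticoid receptor gene Nr3c1 was at -0.27 ± 0.09 and 0.04 ± 0.32 and the mineralocorticoid receptor gene Nr3c2 at -0.10 ± 0.16 and 0.05 ± 0.14.

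**Figure D2:**
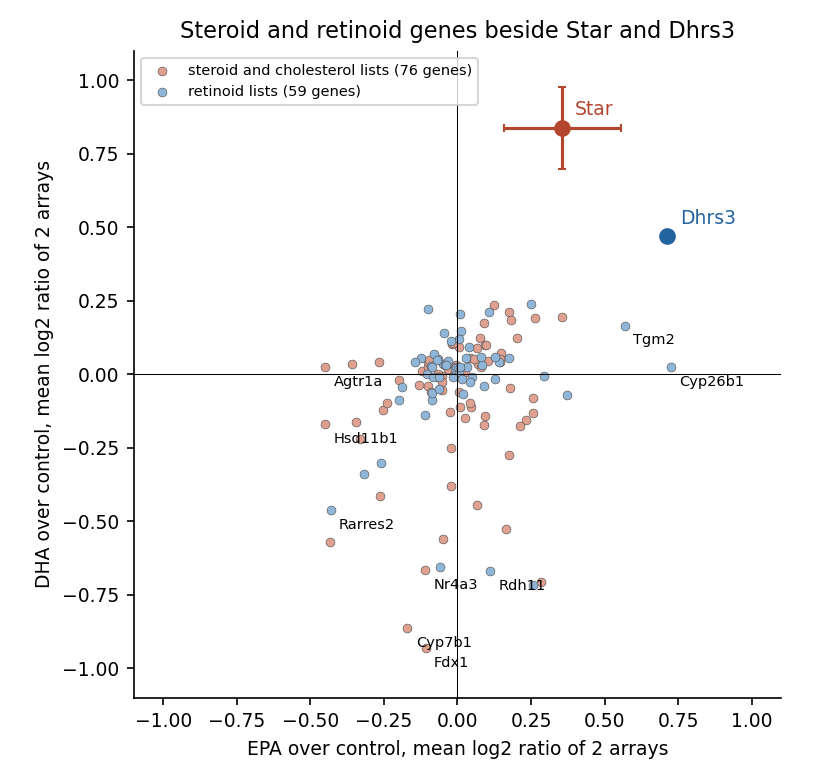
Mean log2 ratio with EPA (x axis) and with DHA (y axis) of 135 steroid, cholesterol and retinoid genes, with Star and Dhrs3 in red and blue and their half-differences as bars. Star (0.36 and 0.84) and Dhrs3 (0.71 and 0.47) lie in the upper right, Cyp26b1 (0.73 and 0.03) and Tgm2 (0.57 and 0.17) lie far right, and the points far below 0 on the y axis include genes of the low-ratio area such as Fdx1 and Cyp7b1.

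Among the retinoid genes besides Dhrs3, 1 of 59 measured was higher at 1.3-fold on both EPA arrays (1.69%, against 0.176% of all genes). With DHA 1 of the 59, Rarres2, was lower at 1.3-fold on both arrays (1.69%, against 0.238%). None was 1.5-fold higher or lower. The median over the 59 was -0.0099 for EPA and 0.03 for DHA. Cyp26b1, which degrades retinoic acid, was at 1.13 on EPA array 1 and 0.33 on EPA array 2, a mean of 0.73 ± 0.40, and at 0.07 and -0.02 on the DHA arrays. Its EPA values lay above both DHA values, but array 2 stayed under 1.3-fold. Dhrs3, by comparison, had nearly equal values on both EPA arrays and was above 1.3-fold with DHA as well. Tgm2, a transglutaminase induced by retinoic acid in other cell systems, was the list gene higher with EPA at 1.3-fold, at 0.43 and 0.71, a mean of 0.57 ± 0.14. Its DHA mean was 0.17 ± 0.04. Read as Cy5 over Cy3 its EPA mean would be -0.14.

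Both EPA values lay above both DHA values in 3 of the 21 measured genes of retinal and retinoic acid metabolism, Cyp26b1 among them, and below in 1. Of all genes 15.1% lay above and 13.6% below, so no pattern is read from these counts. Aldh1a2, the main retinoic acid forming dehydrogenase of the embryonic heart, was at -0.04 ± 0.24 with EPA and 0.14 ± 0.04 with DHA, and Aldh1a1, a related enzyme in the low-ratio area, at 0.01 ± 0.05 and 0.15 ± 0.29. Rdh11, a retinal reductase in the low-ratio area, was at 0.11 ± 0.20 and -0.67 ± 0.48, and Retsat, which saturates retinol, at -0.15 ± 0.13 and 0.04 ± 0.19. Over the 21 measured genes of retinal and retinoic acid metabolism the median was -0.04 for EPA and 0.03 for DHA, and none apart from Dhrs3 passed 1.3-fold on both arrays of a fatty acid.

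For storage and transport, Lrat, which esterifies retinol, lay above 0 on every array, at 0.34 and 0.16 with EPA and 0.28 and 0.20 with DHA. Its means were 0.25 ± 0.09 and 0.24 ± 0.04, under 1.3-fold. The retinol carrier Rbp4 was at -0.09 ± 0.07 and -0.09 ± 0.19, Crabp1, which binds retinoic acid in the cytosol, at -0.08 ± 0.03 and 0.07 ± 0.06, and the retinol importer Stra6 at 0.0002 ± 0.0036 and 0.03 ± 0.02. Medians over the 14 measured genes were -0.0082 and 0.03.

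Of the receptors, none passed 1.3-fold on both arrays. Rara was at 0.04 ± 0.19 with EPA and 0.09 ± 0.07 with DHA, Rarb, itself induced by retinoic acid and with 1 of 2 probes in the low-ratio area, at -0.08 ± 0.10 and -0.01 ± 0.01, and Rxra at -0.09 ± 0.29 and 0.02 ± 0.19. Over the 10 receptors and cofactors the medians were 0.02 and 0.02. In the list of 19 measured genes known to respond to retinoic acid the medians were 0.0002 and -0.0057. Rarres2, which encodes the adipokine chemerin, went against Dhrs3 and Tgm2. It lay below control at -0.48 and -0.38 with EPA and at -0.53 and -0.40 with DHA, past 1.3-fold on both DHA arrays and just short of it on EPA array 2. Meis1, a homeobox factor, was at -0.04 ± 0.05 and 0.03 ± 0.02.

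**Figure D3:**
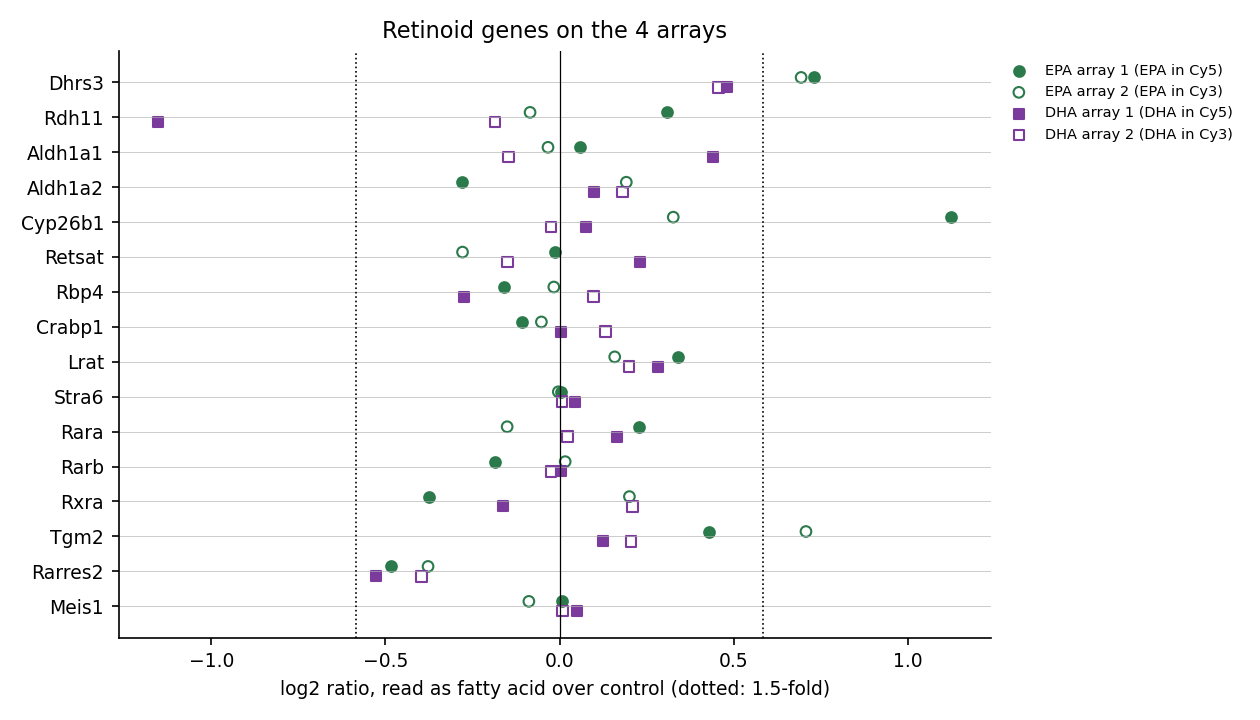
Log2 ratios of 16 retinoid genes on the 4 arrays (EPA as green circles, DHA as purple squares, filled for Cy5 and open for Cy3 in the supplemented cells), with 1.5-fold dotted. Dhrs3 has its 4 values between 0.46 and 0.73, Cyp26b1 and Tgm2 lie right of 0 with EPA, and Rarres2 lies left of 0 on every array.

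Markers of cell types were read as shifts against control. For steroid-producing cells 5 of 9 markers were measured, with a median of -0.02 for EPA and 0.02 for DHA and means between -0.25 (Inha, DHA) and 0.21 (Cyp21a1, DHA). For epicardium, which makes retinoic acid in the developing heart, 4 of 5 were measured, with medians of -0.10 and -0.11. Cardiomyocyte markers (4 of 4) had medians of 0.09 and 0.11, fibroblast markers (3 of 4) -0.08 and -0.33, macrophage markers (4 of 4) -0.10 and 0.04, endothelial markers (3 of 4) -0.0056 and 0.10, and smooth muscle markers (2 of 4) 0.34 and 0.18. By array, the median of the cardiomyocyte markers was -0.03 on EPA array 1 and 0.20 on EPA array 2. It was -0.0092 on DHA array 1 and 0.18 on DHA array 2, so it lay above 0 on arrays 2 only. The DHA shift of the fibroblast markers came with 2 of its 3 genes in the low-ratio area. Tagln, 1 of the 2 smooth muscle markers, had opposed arrays, at -0.77 and 1.88 with EPA and at -0.43 and 1.64 with DHA. Lyz2, a macrophage marker, lay below 0 on all 4 arrays, at -0.74 ± 0.45 and -0.77 ± 0.36, and passed 1.3-fold on both DHA arrays. It was the only macrophage marker to do so. Over the 4 arrays the others averaged 0.04 (Cd68), 0.03 (Adgre1) and -0.08 (Csf1r). The part of these shifts in the ratios of Star and Dhrs3 was not tested.

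The genes whose 4 ratios came nearest to those of each member were ranked by Euclidean distance. Nearest to Star were Cyp4b1, a cytochrome P450 of fatty acid hydroxylation, at a distance of 0.52, Eci2, an isomerase of fatty acid oxidation, at 0.61, Hilpda, a lipid droplet protein, at 0.62, Rnf126, a ubiquitin ligase, at 0.64, and Ucp3, a mitochondrial carrier, at 0.64. Cyp4b1 was at 0.15 ± 0.03 with EPA and 0.69 ± 0.26 with DHA, so like Star it was higher with DHA on both orientations. Eci2 was at 0.09 ± 0.11 and 0.51 ± 0.12. Hilpda and Ucp3, at 0.67 ± 0.08 and 0.37 ± 0.18 with EPA and 0.74 ± 0.04 and 0.44 ± 0.07 with DHA, differed less between the fatty acids, and Rnf126 was at 0.31 ± 0.19 and 0.40 ± 0.07.

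Nearest to Dhrs3 were Slc13a5, a citrate transporter, at a distance of 0.35, Hilpda at 0.40, Hils1, a spermatid histone gene in the low-ratio area, at 0.45, Col5a3, a collagen gene in the same area, at 0.47, and Plin2, a lipid droplet coat protein, at 0.51. Slc13a5 was at 0.51 ± 0.09 with EPA and 0.34 ± 0.04 with DHA and so, like Dhrs3, was higher with EPA on both orientations. Hils1 was at 0.62 ± 0.08 and 0.18 ± 0.04, Col5a3 at 0.46 ± 0.11 and 0.27 ± 0.0064, and Plin2 at 0.49 ± 0.22 and 0.50 ± 0.13. Star and Dhrs3 themselves lay 0.81 apart. The listed genes were picked for their small distances, so nothing is read from their lying closer. Where the distance between Star and Dhrs3 ranks among those of all genes was not tested. Of the 9 genes near either member, 2 (Ucp3 and Hils1) hold AGGTCA in the promoter window, against 11.6% of the windows of 8374 array genes. Nothing is read from so small a count. Likeness over 4 arrays is a description of these ratios.

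**Figure D4:**
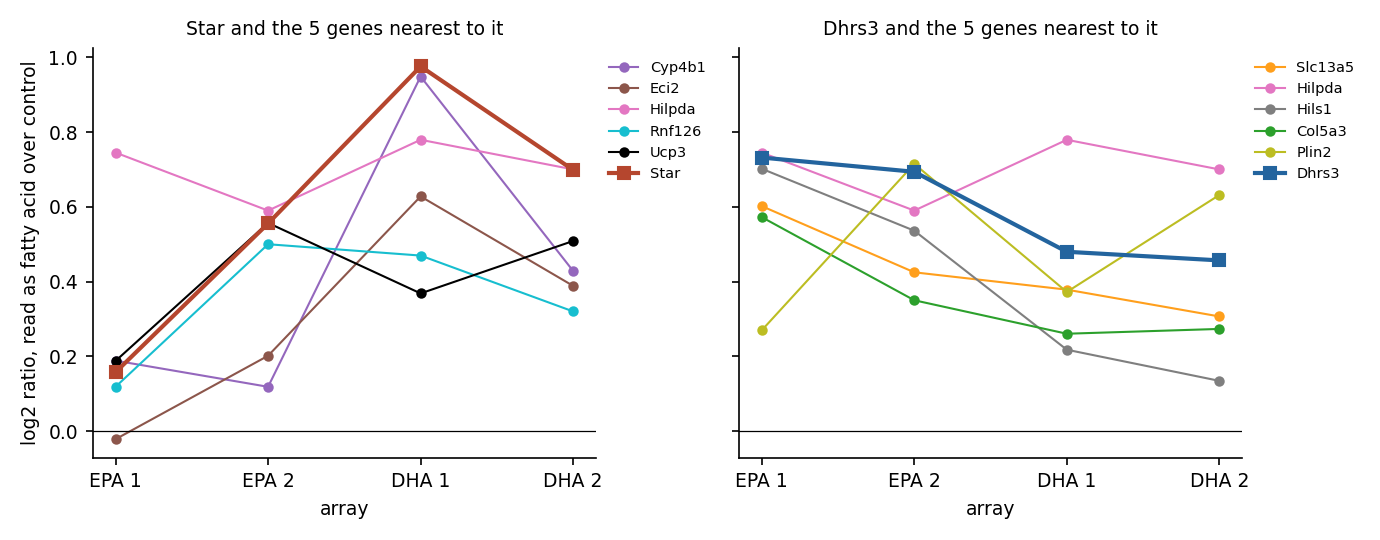
Log2 ratios on the 4 arrays of Star (left, red squares) and Dhrs3 (right, blue squares) with the 5 genes nearest to each by Euclidean distance. Star and Cyp4b1 peak on DHA array 1 (0.98 and 0.95), and the line of Dhrs3 falls from 0.73 to 0.46, with that of Slc13a5 below it on every array.

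The nearest measured genes along the chromosomes of Star and Dhrs3 were read as well. They are not all adjacent. Between Star and its neighbours lie 1 to 10 other genes. For Dhrs3 there are 36 to 50 on the side of lower coordinates and 0 to 3 on the other, so its lower side was not sampled closely. Among the 3 nearest measured genes on either side of Star in the order of GRCr8 (Fnta, Pomk and Ash2l, then Bag4, Plpp5 and Fgfr1), the mean ratios lay between -0.26 and 0.0027 with EPA and between 0.002 and 0.12 with DHA. Around Dhrs3 (Kazn, Prdm2 and Pdpn, then Vps13d, Tnfrsf1b and Tnfrsf8) they lay between -0.05 and 0.08 with EPA and between -0.31 and 0.07 with DHA, the lowest being Kazn in the low-ratio area. Vps13d, which lies directly beside Dhrs3 and whose 8 probes include 5 in that area, was at 0.03 ± 0.06 and 0.03 ± 0.06. None of these 12 genes passed 1.3-fold on both arrays of a fatty acid. Since Star and Dhrs3 were chosen for their ratios, nothing is read from their distance to these neighbours.

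**Figure D5:**
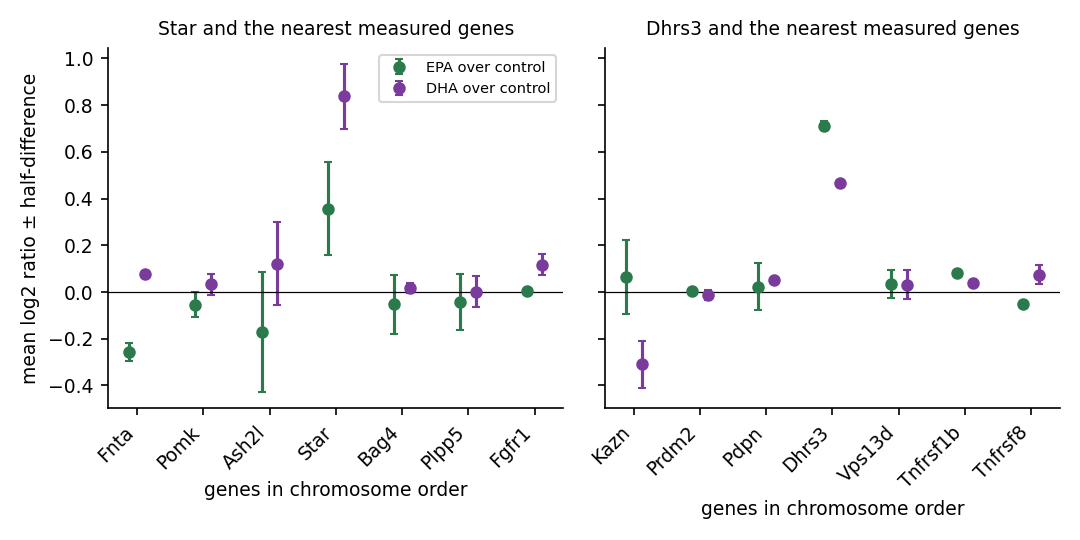
Mean log2 ratio with EPA (green) and DHA (purple) of Star (left) and Dhrs3 (right) and of the 3 nearest measured genes on each side, in chromosome order without scale, with the half-difference of the 2 arrays as bars. Star (0.36 and 0.84) and Dhrs3 (0.71 and 0.47) are drawn beside neighbours whose means lie between -0.31 (Kazn, DHA) and 0.12 (Ash2l, DHA).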

How the data were processed

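Expression ratios were obtained by the authors from cRNA labelled with Cy3 and Cy5 on an Agilent rat oligonucleotide array, per the labels. The deposited table gives each feature a single number on each array, taken here to be a log2 ratio. Of 22575 features 2075 were empty and 20500 had a value on all 4 arrays. No source used here states the log base, the direction, or how background and dyes were corrected. Deposited medians lay between -0.0097 and 0.0024, so the values had been centred.

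Array medians were set to 0. Symbols came from the platform's own, older annotation and were updated by gene ID through the GRCr8 gene table: 12750 had 1 symbol, 5 several and 7745 none listed. Probes of a gene were averaged (9653 genes). Arrays of a swap counted as a technical repeat of 1 RNA sample, so their half-difference does not measure the spread among RNA samples. A gene was called when both arrays passed 1.5-fold in the same direction. limma 3.58.1 in R 4.3.3 (lmFit, eBayes) tested the 2 swap means against 0. Both procedures were run on simulated data with moves larger than the mean ratios of Star and Dhrs3, the size rule at reduced noise. Such runs check the code and do not show how well changes of the observed size are found. Grid columns were inferred from feature numbers. The local median spanned 5 columns and 10 rows to each side.

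Star and Dhrs3, the 9 gene lists, the 7 marker lists and the motifs were chosen with earlier results of these data known. Named genes were both members, list genes past 1.3-fold on both arrays, key genes of each list, the 5 nearest patterns and the 3 neighbours on each side. Alternatives changed the centring, scaling, position correction, reading, log base, threshold, probe averaging and arrays used.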

Additional observations from a re-analysis of the deposited data

Results flagged for a closer look

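For 4 of the genes named, both EPA arrays lay on one side of 0 and both DHA arrays on the other, as for 8.49% of all 9653 genes. The difference was not tested. Npc1, the lysosomal cholesterol transporter, differed by -0.14 between EPA and DHA, and Crabp1, the cytosolic retinoic acid binding protein, by -0.15. The value of Npc1 is the mean of 3 probes, which averaged -0.0017, -0.17 and 0.09 over the 4 arrays. Fnta, a subunit of farnesyltransferase that lies near Star, was at -0.26 ± 0.04 with EPA and 0.08 ± 0.0043 with DHA, a difference of -0.33. Tnfrsf8, a receptor of the tumor necrosis factor family near Dhrs3, differed by -0.13. None of them has a probe in the low-ratio area, and none passed 1.3-fold on both arrays of a fatty acid.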

How the results depend on the processing

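The cause of the changes below was not tested. Star with EPA moved from 0.36 to -0.20 read as Cy5 over Cy3 and to 1.19 in base 10, and ran from 0.16 to 0.56 on a single array. Star with DHA moved from 0.84 to 1.04 under quantile normalization, 0.14 as Cy5 over Cy3 and 2.78 in base 10 (0.70 to 0.98 on a single array), and the difference of EPA from DHA from -0.48 to -1.60 in base 10 (-0.82 to -0.14). Dhrs3 with EPA moved from 0.71 to 0.65 under quantile normalization, 0.019 as Cy5 over Cy3 and 2.37 in base 10 (0.69 to 0.73). Dhrs3 with DHA moved from 0.47 to 0.52 under quantile normalization, 0.49 at equal spread, 0.42 without local medians, 0.012 as Cy5 over Cy3, 1.56 in base 10 and 0.44 without the low-ratio area (0.46 to 0.48). Its difference moved from 0.24 to 0.14, 0.20, 0.31, 0.0075, 0.81 and 0.28 under the same settings (0.24 to 0.25). Of the results for other named genes, 717 kept their value within the spread of the arrays, 178 moved, and Tgm2 with EPA reversed to -0.14 as Cy5 over Cy3. The 717 include 112 results for arrays 1 alone and 112 for arrays 2 alone. A single array always lies within that spread, so these say nothing about stability.

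Genes called with EPA went from 3 to 25 under quantile normalization (4 higher, 21 lower), 5 at equal spread (4 and 1), 27 as Cy5 over Cy3 (0 and 27), 477 in base 10, 25 at 1.3-fold and 83 to 307 on a single array. With DHA they went from 8 (4 and 4) to 15 (4 and 11), 5 without local medians, 5 as Cy5 over Cy3 (0 and 5), 479 in base 10, 37 at 1.3-fold and 83 to 968 on a single array. Between EPA and DHA they went from 6 (4 and 2) to 37 under quantile normalization (26 and 11) and 11 at equal spread (9 and 2). They also went to 3 as Cy5 over Cy3 (3 and 0), 579 in base 10, 39 at 1.3-fold and 46 to 1318 within a single dye orientation. List genes called went from 0 with EPA to 2 under quantile normalization, 9 in base 10, 2 at 1.3-fold and 4 on a single array. With DHA they went from 0 to 1 under quantile normalization, 1 at equal spread, 10 in base 10, 3 at 1.3-fold and 0 to 13 on a single array. Between EPA and DHA they went from 0 to 2 as Cy5 over Cy3, 9 in base 10, 1 at 1.3-fold and 2 to 19 within a single dye orientation.

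Probes called by limma on both fatty acids went from 0 to 2 without the low-ratio area. They were 0 on arrays 1 alone and 1680 on arrays 2 alone, where the EPA and DHA arrays of 1 dye orientation were taken as repeats. Over the 4 arrays limma called 0 probes with the replicate number as a block (replicate block) and 0 without, at 1717 and 992 probes of unadjusted p under 0.05. The number marks the dye orientation, and whether it also marks a shared animal or RNA is not stated. Deviations of same-numbered arrays from the group means correlated at r = 0.31. No depth is defined for these arrays, and signal over background was not used here.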
